A study of Homo sapiens with 24 samples.

Results

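The endoplasmic reticulum unfolded protein response was followed through 10 genes whose products fold, retrieve or destroy secretory proteins: HSPA5, HSP90B1, CALR, DNAJB9, SDF2L1, PDIA4, XBP1, HERPUD1, SEL1L and EDEM1. The members were every probe set that the platform annotation gives to exactly 1 of these symbols, 22 of the 54675 probe sets on the array, and they represent 10 of 19775 genes. RNA was measured on 24 Affymetrix U133 Plus 2.0 arrays, 3 in each of 8 groups of human embryonic stem cells. HSF1 is here a cell line, not the heat shock factor gene.

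In 4 of the groups the lines H1, H9 and HSF1 were each represented by 1 array per condition. These cultures were feeder-free (FF) or feeder-supported (FS), that is, grown without or with mouse embryonic fibroblasts, and had received for 5 days either DMSO or AZD3965 at 250 nM, a small molecule that blocks lactate export through MCT1. In the other 4 groups feeder-free H9 or HSF1 cells had unconditioned medium or medium conditioned by mouse embryonic fibroblasts, with 3 biological replicates per group. Exposure to conditioned medium is 5 days by the sample labels but 24 hours by the series text. No source used here says whether feeder cells were removed before RNA was isolated, and each line is a single isolate, so a response in 1 line need not hold in another. The study asked how feeders, their secreted factors and a block of lactate export alter these cells.

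Secretory and membrane proteins fold in the endoplasmic reticulum (ER). When unfolded chains accumulate there, the membrane sensors IRE1 (gene ERN1), PERK (EIF2AK3) and ATF6 signal to the nucleus. IRE1 splices XBP1 messenger RNA to make an active transcription factor, ATF6 is cut to release another, and PERK slows translation while favouring ATF4. The target genes add chaperones, oxidoreductases and the machinery of ER-associated degradation (ERAD), which sends misfolded proteins to the proteasome. The arrays report total XBP1 RNA and do not separate its spliced form.

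Known control sequences of this response lie close to the start sites of several members. RefSeq promoter windows on GRCh38.p14, from 250 bases before to 50 bases after a start, were available for 10 of 10 members (12 windows). The ER stress response element (ERSE, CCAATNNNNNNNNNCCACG) was found on either strand in 27 of 35116 windows of the same length, 0.0769%, and in those of 4 members: HSPA5, HSP90B1, CALR and 1 of the 2 XBP1 windows. The second form (ERSE-II, ATTGGNCCACG) was found in 19 windows, 0.0541%, and in those of HERPUD1 and SDF2L1. The core of the XBP1 element (TGACGTGG) was found in 256 windows, 0.729%, and in none of the members' windows. The 6 lists of other pathway genes used below hold 96 genes with a window. Of these, 5 held ERSE, 1 ERSE-II and 11 the core of the XBP1 element, against 25, 19 and 253 of all 27305 genes. All of these motifs hold CCACG on 1 strand, and the matches printed here do not overlap. No match was found in the windows of DNAJB9, PDIA4, SEL1L and EDEM1, which says only that these letters are not in that stretch. The capitals below mark the matches. The HERPUD1 sequence (chr16:56931892-56932141, plus strand) and the XBP1 sequence (chr22:28800570-28800819, minus strand) are the 250 bases before the start. The others are the matches with 25 flanking bases, or fewer at a window's edge: HSPA5 (chr9:125241366-125241434, minus strand), HSP90B1 (chr12:103930191-103930364, plus strand), CALR (chr19:12938359-12938427, plus strand) and SDF2L1 (chr22:21642089-21642149, plus strand).
HERPUD1: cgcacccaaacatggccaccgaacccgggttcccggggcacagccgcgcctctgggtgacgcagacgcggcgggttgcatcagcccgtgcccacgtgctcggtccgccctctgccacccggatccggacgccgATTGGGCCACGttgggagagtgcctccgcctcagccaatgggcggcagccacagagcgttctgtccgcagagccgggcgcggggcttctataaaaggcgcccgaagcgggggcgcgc
XBP1: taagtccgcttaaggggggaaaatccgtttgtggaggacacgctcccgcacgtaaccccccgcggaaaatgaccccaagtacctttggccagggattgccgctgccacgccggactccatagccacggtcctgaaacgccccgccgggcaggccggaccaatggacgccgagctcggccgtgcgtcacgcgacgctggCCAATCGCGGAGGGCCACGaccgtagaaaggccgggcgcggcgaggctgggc
HSPA5: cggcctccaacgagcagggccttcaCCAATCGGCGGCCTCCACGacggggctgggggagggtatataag
HSP90B1: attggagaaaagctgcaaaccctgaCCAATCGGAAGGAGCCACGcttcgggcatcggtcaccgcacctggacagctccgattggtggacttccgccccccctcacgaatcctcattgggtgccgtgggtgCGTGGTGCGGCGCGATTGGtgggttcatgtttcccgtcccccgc
CALR: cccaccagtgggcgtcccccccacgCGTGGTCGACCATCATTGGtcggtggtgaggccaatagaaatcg
SDF2L1: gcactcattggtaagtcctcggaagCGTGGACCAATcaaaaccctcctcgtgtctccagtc

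Counted from the start site, the HERPUD1 match spans bases -117 to -107 and the XBP1 match bases -52 to -34. The HSPA5 match spans bases -66 to -48. HSP90B1 holds a match at -194 to -176 and another, on the opposite strand, at -89 to -71. The CALR and SDF2L1 matches also lie on the opposite strand, at -225 to -207 and at -188 to -178.

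Values below are the deposited log2 RMA values, where a difference of 1 is a doubling. A gene is represented by its probe set with the highest mean over the 24 arrays. Differences are given with the standard error (SE) of a limma fit over the 12 arrays of a part of the study, and a gene passed when its Benjamini-Hochberg adjusted p over all genes tested was under 0.05. All 10 members passed the filter on low values in both parts, where 17218 and 16572 genes were tested. In bulk RNA, fewer cells of a type and less RNA per cell cannot be told apart. In the 4 feeder and inhibitor groups the p-values rest on the spread left after each line's mean level is taken out, pooled over these groups. In the medium groups they rest on the spread between biological replicates within a group, pooled over both lines.

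The arrays carried stem cell RNA: 10 of 12 stem cell markers had a probe set of their own, and their mean log2 value lay between 11.6 and 12.7 on every array. Of the 24 arrays, both feeder-supported HSF1 arrays stood apart, with correlations of 0.86 to 0.961 to the other 22 against 0.948 to 0.998 among those 22. Their difference between 3-prime and 5-prime ACTB control probe sets, which reflects how intact the RNA is, was -0.15 and -0.31, against 0.44 to 1.19 on the other 10 arrays of that part. In the medium part it was 3.25 and 2.89 on replicates 2 and 3 of unconditioned H9, against 1.07 to 1.84 on the other 10 arrays. For each member that passed on feeders or in H9, the difference is given with and without these arrays. For other pathway genes it is given without them only in part.

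In conditioned medium some members fell and 1 rose. In HSF1, HERPUD1, XBP1, EDEM1 and HSPA5 fell in conditioned medium, and 0 of 10 members rose. In H9, HERPUD1 and SEL1L fell and HSP90B1 rose. These are 4 and 3 of 10 members, against 18.3% of all genes in HSF1 (9.78% counting only genes that fell) and 16.4% in H9. The members' median difference was -0.16 in HSF1 and -0.10 in H9, against 0.029 and -0.027 for all genes tested. Each line has control arrays of its own.

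**Figure D1:**
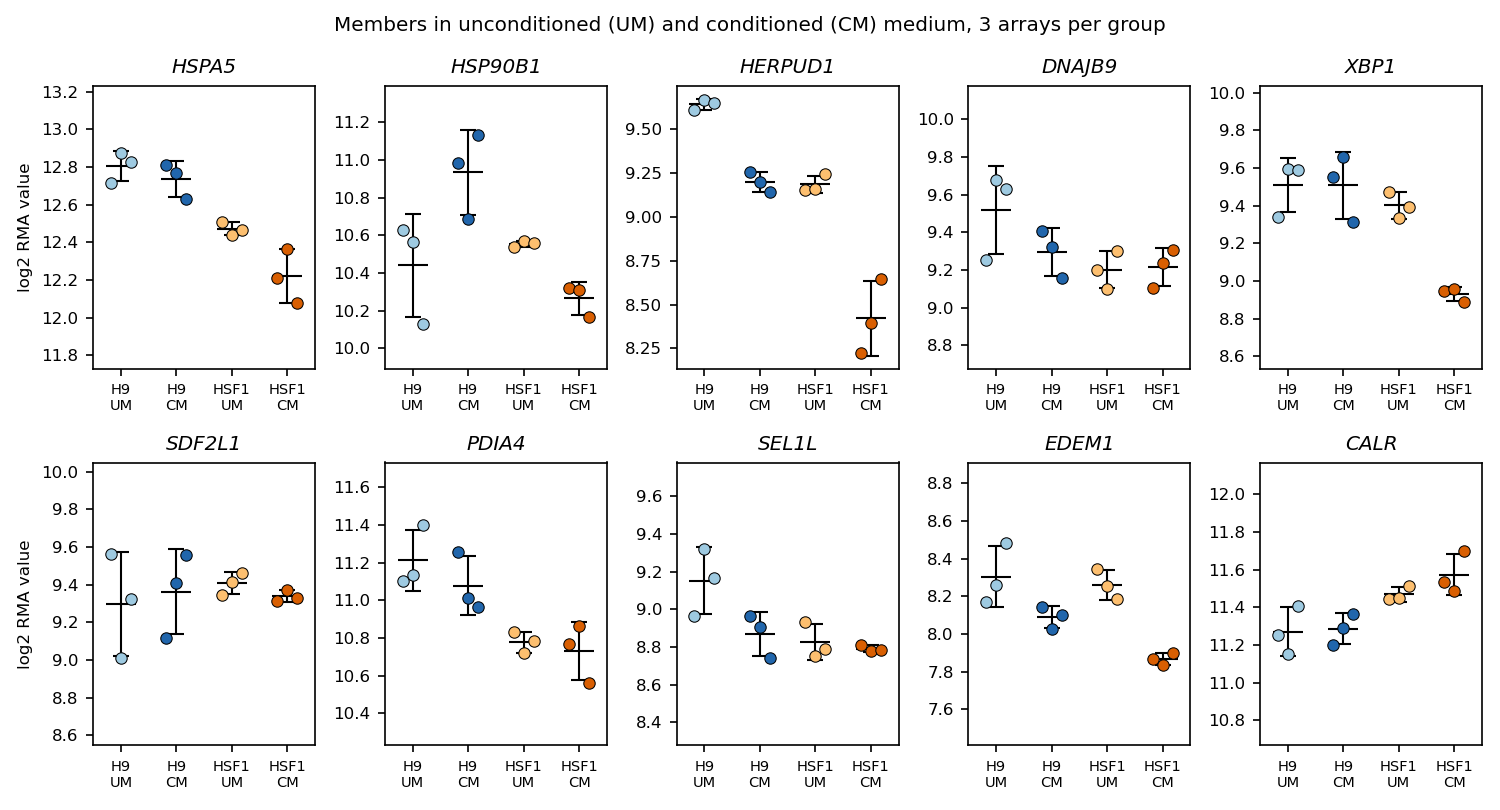
Log2 RMA value of each member's representative probe set on the 12 arrays of the medium part, by line and medium (UM, unconditioned; CM, conditioned; points, single arrays; bars, mean with SD, n = 3). HERPUD1, XBP1, EDEM1 and HSPA5 are lower on all conditioned HSF1 arrays than on any unconditioned HSF1 array, and HERPUD1 and HSP90B1 separate by medium in H9. Each panel has its own axis.

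HERPUD1, an ER membrane protein that helps assemble the ERAD complex, fell in both lines. In H9 its values were 9.61, 9.67 and 9.65 in unconditioned and 9.26, 9.20 and 9.14 in conditioned medium. In HSF1 they were 9.15, 9.16 and 9.24 in unconditioned and 8.22, 8.40 and 8.65 in conditioned medium. The groups do not overlap in either line. The difference was -0.76 (SE 0.089, adjusted p = 1.66e-05) in HSF1, 0.59 times the unconditioned level, and -0.44 (SE 0.089, adjusted p = 0.00328) in H9. Across the 4 groups the order was H9 unconditioned (9.64 ± 0.031, SD, n = 3), H9 conditioned (9.20 ± 0.059), HSF1 unconditioned (9.19 ± 0.049) and HSF1 conditioned (8.42 ± 0.21), and the middle pair did not differ beyond its spread. The change in HSF1 minus that in H9 was -0.32 (SE 0.13, adjusted p = 0.128), which did not pass. Without replicates 2 and 3 of unconditioned H9, the arrays with the raised ACTB difference, the difference in H9 was -0.41 with adjusted p = 0.0889, where the array that is left is assumed to vary like the other groups. Without conditioned replicate 3 of HSF1 the difference between the lines was -0.43 and passed, with adjusted p = 0.0342.

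XBP1, the transcription factor activated by IRE1, fell in HSF1. Its values there were 9.47, 9.34 and 9.40 in unconditioned and 8.95, 8.96 and 8.89 in conditioned medium, with no overlap. The difference was -0.47 (SE 0.091, adjusted p = 0.00169). In H9 the values were 9.34, 9.59 and 9.59 in unconditioned and 9.55, 9.66 and 9.31 in conditioned medium. The H9 groups overlap throughout, with a difference of -0.00065 (SE 0.091) and a 95% interval of -0.19 to 0.19. The change differed between the lines by -0.47 (SE 0.13, adjusted p = 0.0356), where 7.73% of all genes passed. Leaving out 1 array at a time ended that call for 8 of the 12 arrays: replicates 1 and 2 of conditioned H9 and every HSF1 array, with values from -0.50 to -0.40 and adjusted p from 0.0565 to 0.104. The second XBP1 probe set, 242021_at, lay at 5.61 to 6.01 on the medium arrays and did not show the fall: it read -0.083 (SE 0.12, adjusted p = 0.721) in HSF1 and -0.060 (SE 0.12) in H9. With both probe sets averaged the difference between the lines was -0.25 (adjusted p = 0.125).

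EDEM1, a lectin that draws misfolded glycoproteins to ERAD, also fell in HSF1. Its values were 8.34, 8.25 and 8.19 in unconditioned and 7.87, 7.84 and 7.90 in conditioned medium, with no overlap, a difference of -0.39 (SE 0.084, adjusted p = 0.00372). In H9 they were 8.17, 8.26 and 8.48 against 8.15, 8.03 and 8.10, again without overlap but narrowly, and the difference of -0.21 (SE 0.084, adjusted p = 0.0933) did not pass. Without replicate 1 of unconditioned H9 it was -0.28 and passed (adjusted p = 0.017). The unconditioned H9 arrays left are then replicates 2 and 3, those with the raised ACTB difference. With replicates 2 and 3 left out instead, the EDEM1 difference in H9 was -0.076. HERPUD1, XBP1 and EDEM1 in HSF1 kept their calls in 23 of 23 alternative settings each, although averaging probe sets reduced XBP1 to -0.28 (adjusted p = 0.0084) and HERPUD1 to -0.28.

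The ERAD adaptor SEL1L, which holds the ubiquitin ligase of the complex, fell in H9. Its values there were 8.97, 9.32 and 9.17 in unconditioned and 8.97, 8.90 and 8.74 in conditioned medium. The lowest unconditioned and the highest conditioned array both round to 8.97, and the difference was -0.28 (SE 0.090, adjusted p = 0.0435). In HSF1 the values were 8.93, 8.75 and 8.79 against 8.81, 8.78 and 8.78, a difference of -0.033 (SE 0.090), and the change in HSF1 minus that in H9, 0.25 (SE 0.13, adjusted p = 0.25), did not pass. The H9 call was lost in 17 of 23 settings, and without replicates 2 and 3 of unconditioned H9 the difference was -0.097 (adjusted p = 0.723). Leaving out any 1 array other than replicate 1 of either H9 group also ended it, with values from -0.30 to -0.20 and adjusted p from 0.0537 to 0.176. Without replicate 1 of unconditioned H9 the difference between the lines was 0.34 and passed (adjusted p = 0.0413). That setting keeps only the unconditioned H9 arrays with the raised ACTB difference.

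Among the chaperones, HSPA5 (BiP), the abundant HSP70-type chaperone that also holds the sensors inactive, fell by a small amount in HSF1. Its values were 12.51, 12.44 and 12.47 in unconditioned and 12.21, 12.37 and 12.08 in conditioned medium, with no overlap, a difference of -0.25 (SE 0.071, adjusted p = 0.0198). The second HSPA5 probe set, 230031_at, moved the other way on the same arrays: 8.25, 8.26 and 8.18 in unconditioned and 8.45, 8.52 and 8.60 in conditioned medium. Its difference was 0.29 (SE 0.077, adjusted p = 0.0240 over all probe sets). The direction given for HSPA5 is therefore that of 1 probe set, and with the mean of both it was 0.021 (adjusted p = 0.838). The call of the first probe set was also lost without replicate 1 or 3 of either HSF1 group, with differences from -0.26 to -0.18 and adjusted p from 0.0572 to 0.105. In H9 the values were 12.72, 12.87 and 12.83 against 12.81, 12.77 and 12.63, and the groups overlap.

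HSP90B1 (GRP94), the HSP90-type chaperone of the ER, responded differently in the lines. In H9 its values were 10.63, 10.57 and 10.13 in unconditioned and 10.98, 10.69 and 11.13 in conditioned medium, a rise of 0.49 (SE 0.12, adjusted p = 0.0102). In HSF1 they were 10.54, 10.57 and 10.56 in unconditioned and 10.32, 10.31 and 10.17 in conditioned medium, a difference of -0.29 (SE 0.12, adjusted p = 0.103). The groups overlap in neither line, and the directions are opposite. The change in HSF1 minus that in H9 was -0.78 (SE 0.17, adjusted p = 0.0112) and passed in 22 of 22 alternative settings. The rise in H9 alone was lost without replicate 3 of unconditioned H9, the lowest of the 3 (0.34, adjusted p = 0.0567), and without replicate 3 of conditioned H9 (0.39, adjusted p = 0.0547). With replicates 2 and 3 of unconditioned H9 both left out it was 0.31 (adjusted p = 0.227). Without replicate 3 of unconditioned H9 the fall in HSF1 passed at -0.29 (adjusted p = 0.0362), since the 2 lines share 1 estimate of the spread.

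The second HSP90B1 probe set, 216450_x_at, gave 9.03, 8.96 and 8.60 in unconditioned and 9.02, 9.25 and 9.13 in conditioned H9, and 8.66, 8.74 and 8.62 against 8.28, 8.34 and 8.09 in HSF1. Its differences, 0.27 (SE 0.11, adjusted p = 0.119) and -0.44 (SE 0.11, adjusted p = 0.0169), have the same signs as those of the first. In feeder-free H9 of the feeder and inhibitor part this probe set lay far lower, at 6.51 with DMSO and 6.37 with AZD3965. The cause was not tested, which limits it as a second reading. A further 2 probe sets carry HSP90B1 together with another gene and were left out by the rule.

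The other 4 members passed in neither line. DNAJB9, a cochaperone of BiP, had group means of 9.52 and 9.30 in unconditioned and conditioned H9, and of 9.20 and 9.22 in HSF1. Without replicate 1 of unconditioned H9 its difference there, -0.22 (SE 0.10, adjusted p = 0.151), was -0.36 and passed (adjusted p = 0.00535), and so did its difference between the lines, at 0.37 (adjusted p = 0.0329). The unconditioned H9 arrays left are then replicates 2 and 3, those with the raised ACTB difference. With replicates 2 and 3 left out instead, the DNAJB9 difference in H9 was 0.043. The interval of the difference in HSF1 was -0.21 to 0.24. SDF2L1, another BiP partner, ranged from 9.01 to 9.56 over the 12 arrays, with intervals of -0.19 to 0.32 in H9 and -0.32 to 0.19 in HSF1. PDIA4, a protein disulfide isomerase that forms and rearranges disulfide bonds, had intervals of -0.34 to 0.069 and -0.25 to 0.16. CALR, the lectin chaperone calreticulin, had intervals of -0.14 to 0.17 and -0.052 to 0.26.

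**Figure D2:**
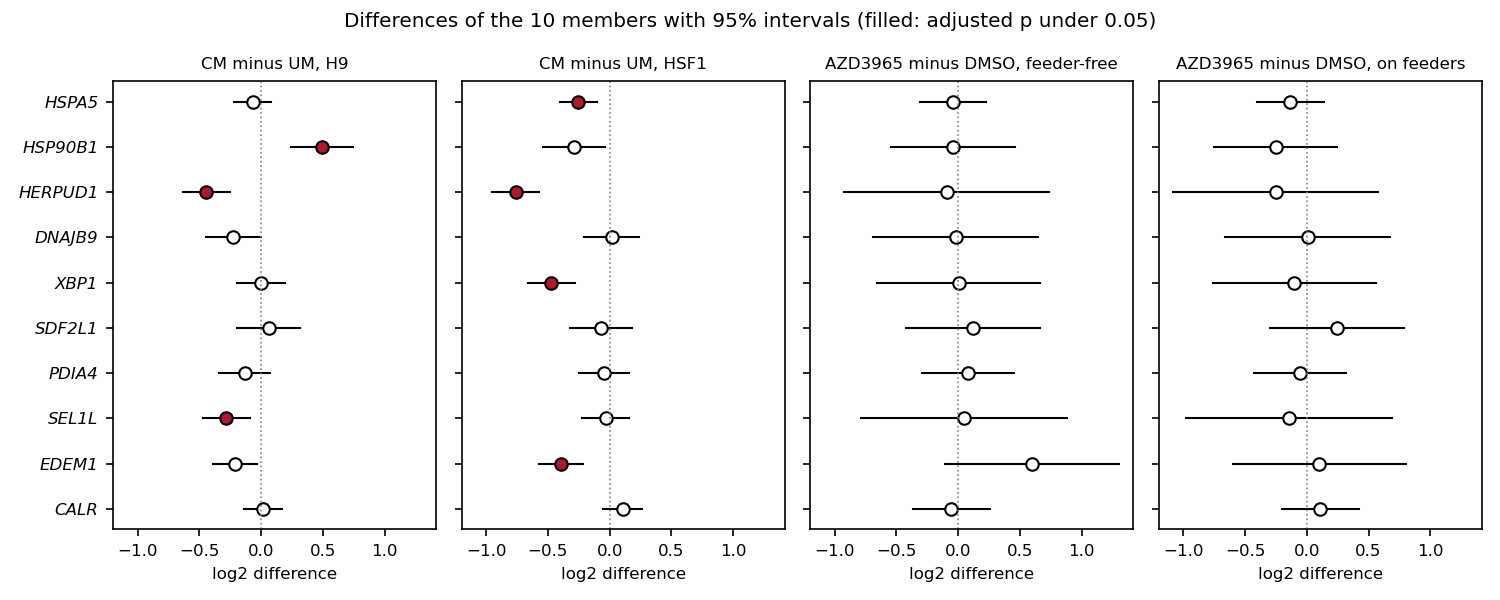
Log2 difference of each member with its 95% interval from the limma fit, for conditioned minus unconditioned medium in H9 and HSF1 (3 against 3 arrays each) and for AZD3965 minus DMSO without and on feeders (3 lines each). Filled points passed the adjusted p threshold: 3 in H9, 4 in HSF1 and 0 under the inhibitor, where the intervals are wider.

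The other genes of the pathway were taken from 6 lists of 110 genes without the members: UPR sensors and regulators, the PERK and ATF4 arm, ER chaperones, ER oxidoreductases, ER translocation and the secretory pathway, and ERAD with glycan trimming. In HSF1, 3 rose and 19 fell in conditioned medium of 102 tested, with a median of -0.021, and in H9, 3 rose and 11 fell, with a median of -0.036. These are 21.6% and 13.7% of the pathway genes tested, against 18.3% and 16.4% of all genes, whose medians were 0.029 and -0.027. In HSF1 the genes that fell included 6 of 23 of translocation and secretion, 4 of 17 chaperones, 2 of 11 oxidoreductases and 3 of 23 of ERAD. Among those that fell, the smallest p-values were those of UBE2J1, the ubiquitin-conjugating enzyme of ERAD (-0.75, SE 0.094, adjusted p = 3.04e-05), SEC63, a partner of the translocation channel (-0.59, SE 0.087, adjusted p = 0.000156), and SEC11C, a signal peptidase subunit (-0.43, SE 0.075, adjusted p = 0.000761). EDEM2, a relative of EDEM1, rose by 0.27 (SE 0.078, adjusted p = 0.0235), a call lost without any 1 of the 6 HSF1 arrays (0.26 to 0.28, adjusted p from 0.0539 to 0.078). None of the sensors and regulators passed in HSF1 (0 of 14 by limma), and in H9 2 of 14 fell.

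The PERK and ATF4 arm split in both lines, with 2 of 14 genes higher in each and 4 lower in HSF1 and 5 lower in H9. The genes that rose were DDIT4, an inhibitor of mTORC1 (0.58, SE 0.085, adjusted p = 0.000252 in H9 and 0.75, SE 0.085, adjusted p = 1.22e-05 in HSF1), and VLDLR, a lipoprotein receptor (0.44, SE 0.086, adjusted p = 0.00237 and 0.66, SE 0.086, adjusted p = 4.67e-05). Those leading the fall in H9 were ATF3, a stress-induced transcription factor (-0.40, SE 0.088, adjusted p = 0.00625), CARS1, a cysteinyl-tRNA synthetase (-0.35, SE 0.072, adjusted p = 0.00399), and ASNS, asparagine synthetase (-0.34, SE 0.070, adjusted p = 0.00344). Without replicates 2 and 3 of unconditioned H9, ATF3 was -0.29 (adjusted p = 0.223) and ASNS -0.24 (adjusted p = 0.138). With each gene's probe sets averaged, none of these 3 passed: ATF3 was 0.0031 (adjusted p = 0.983), CARS1 -0.17 (adjusted p = 0.0844) and ASNS -0.18 (adjusted p = 0.0932). SRP19, a subunit of the signal recognition particle, rose in H9 by 0.24 (SE 0.066, adjusted p = 0.0237), a call lost without any of replicates 2 and 3 of unconditioned or replicate 2 of conditioned H9 (0.18 to 0.23, adjusted p from 0.0792 to 0.0982). With replicates 2 and 3 of unconditioned H9 both left out it was 0.099 (adjusted p = 0.569).

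ATF4, the transcription factor of the PERK arm, had values of 12.55, 12.51 and 12.57 in unconditioned and 12.26, 12.26 and 12.16 in conditioned HSF1. The groups do not overlap and the difference was -0.31 (SE 0.059, adjusted p = 0.00144), kept in 23 of 23 settings. In H9 it was -0.0092 (SE 0.059). DDIT3 (CHOP), the stress-induced factor downstream of ATF4, was at -0.23 (SE 0.11, adjusted p = 0.158) in HSF1 and -0.15 (SE 0.11) in H9. The sensors themselves did not pass: ERN1 was at 0.0066 (SE 0.092), EIF2AK3 at 0.11 (SE 0.096) and ATF6 at -0.13 (SE 0.11) in HSF1.

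Markers of other lineages moved with conditioned medium as well. In HSF1, 3 of 6 neuroectoderm, 1 of 5 endoderm and 3 of 5 trophoblast and amnion markers were higher, and 2 of 17 fibroblast markers were lower. In H9, 2 of 5 endoderm markers and 1 each of the mesoderm and the trophoblast and amnion markers were higher, with 3 fibroblast markers higher and 3 lower. The mean level of the 21 fibroblast markers was 6.92 to 7.02 in H9 and 6.79 to 6.95 in HSF1, and that of the stem cell markers 12.4 to 12.6 over both, with 3 of 10 stem cell markers higher in each line and 2 lower in HSF1. Their part in the members' changes was not tested.

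On feeders, DNAJB9 was the member that fell under both treatments. With DMSO, 2 of 10 members were lower on feeders and 0 higher, DNAJB9 and SDF2L1, where 39.3% of all genes passed and 24.1% were lower. With AZD3965, 2 of 10 were lower, DNAJB9 and EDEM1, where 47.1% passed and 27.8% were lower. These shares are below the background. All 10 differences were below 0 with DMSO and 9 of 10 with AZD3965, against 57.5% and 57.3% of all genes, but only 4 and 6 of 10 were below 0 after quantile normalization. The 2 feeder comparisons use different arrays of the same 3 lines and 1 estimate of the spread.

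**Figure D3:**
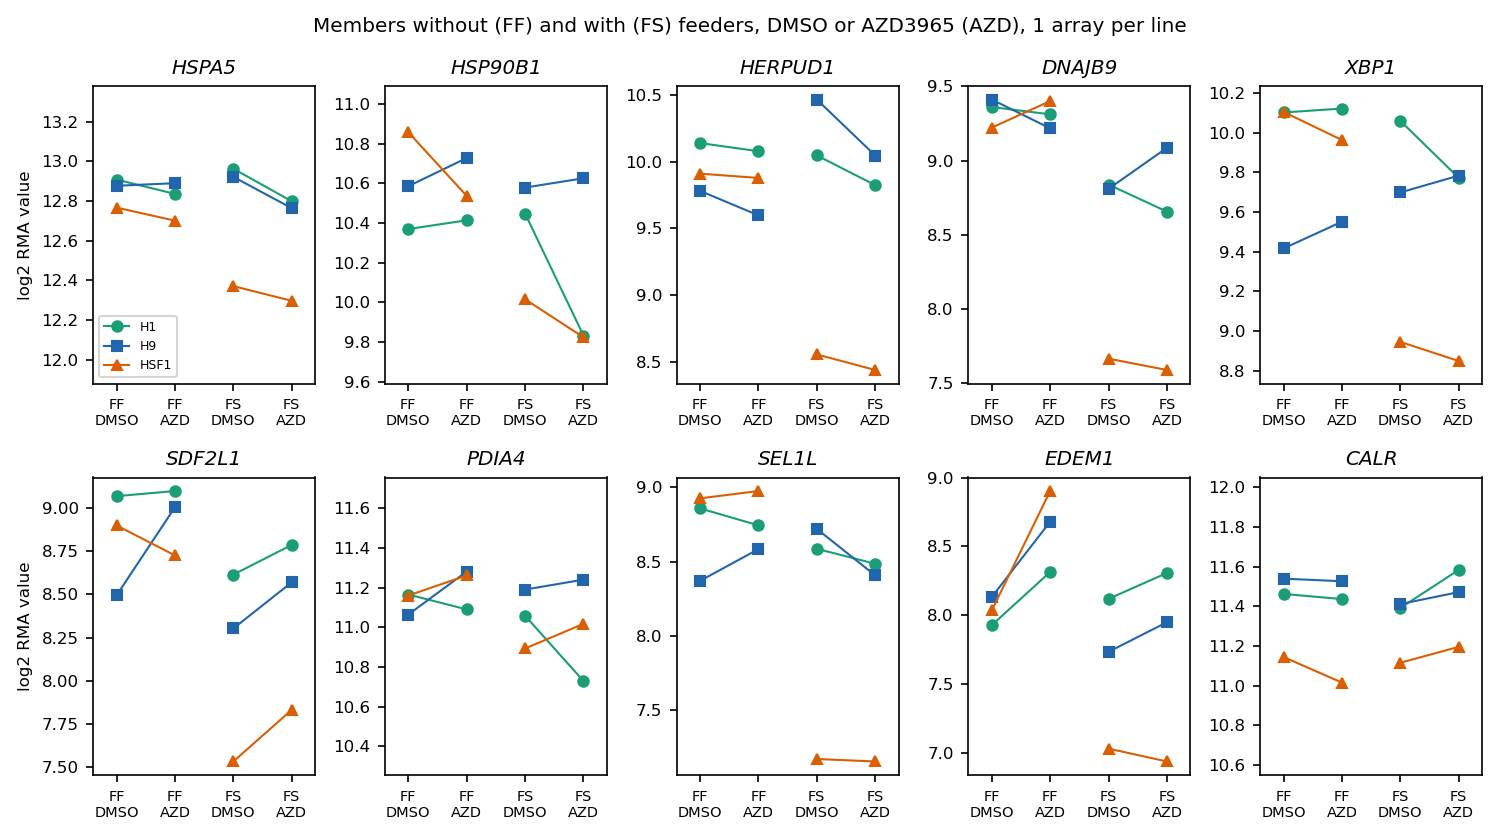
Log2 RMA value of each member's representative probe set on the 12 arrays of the feeder and inhibitor part (FF, feeder-free; FS, feeder-supported; AZD, AZD3965), 1 array per line and condition, with a line joining the DMSO and AZD3965 arrays of a culture. The feeder-supported HSF1 arrays are the lowest 2 of the 12 for 7 of the 10 members. Those arrays stood apart over all probe sets, with interquartile ranges of 2.45 each against 2.66 to 3.3 on the other arrays. The share of all genes that are lowest on them is not given, so this count has no background beside it. EDEM1 is higher with AZD3965 in the feeder-free cultures of all 3 lines. Each panel has its own axis.

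DNAJB9 had values of 9.36, 9.41 and 9.22 without feeders and 8.84, 8.81 and 7.66 on feeders in DMSO-treated H1, H9 and HSF1. It was lower on feeders in 3 of 3 lines and the groups do not overlap. The difference was -0.90 (SE 0.31, adjusted p = 0.0397) with DMSO. With AZD3965 the values were 9.31, 9.22 and 9.40 against 8.66, 9.09 and 7.59, again without overlap, a difference of -0.87 (SE 0.31, adjusted p = 0.0384). The other 2 DNAJB9 probe sets passed in both comparisons, at -0.88 (SE 0.26) and -1.24 (SE 0.34) with DMSO and -0.95 (SE 0.26) and -0.90 (SE 0.34) with AZD3965. Without the feeder-supported HSF1 arrays the difference was -0.51 (adjusted p = 0.0197) with DMSO and -0.44 (adjusted p = 0.0351) with AZD3965. With DMSO the call was lost without H1 (-1.08, adjusted p = 0.109) and without H9 (-1.04, adjusted p = 0.105) but kept without HSF1. With AZD3965 it was lost without any 1 line, at -0.97, -1.24 and -0.39 without H1, H9 and HSF1 (adjusted p = 0.128, 0.0535 and 0.0814).

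SDF2L1 had values of 9.07, 8.49 and 8.90 without and 8.61, 8.30 and 7.53 on feeders in H1, H9 and HSF1 with DMSO. It was lower in 3 of 3 lines, although the groups overlap, and the difference of -0.67 (SE 0.25, adjusted p = 0.0498) lay at the threshold. Without the feeder-supported HSF1 arrays it was -0.40 (adjusted p = 0.0588), and without any 1 line it lay between -0.91 and -0.32 (adjusted p from 0.105 to 0.146). With AZD3965 it was -0.55 (SE 0.25, adjusted p = 0.0829). EDEM1 passed only with AZD3965, with values of 8.32, 8.68 and 8.90 without and 8.31, 7.95 and 6.94 on feeders, a difference of -0.90 (SE 0.32, adjusted p = 0.0400). The groups do not overlap, and the differences were -0.0075 in H1, -0.73 in H9 and -1.96 in HSF1. Without the feeder-supported HSF1 arrays it was -0.43 (adjusted p = 0.0946), and without any 1 line it lay between -1.35 and -0.37 (adjusted p from 0.0603 to 0.181).

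The lines were far apart for most members. The median feeder difference of the 10 members with DMSO was -0.082 in H1, 0.019 in H9 and -1.08 in HSF1, against -0.087, -0.12 and -0.28 for all genes. With AZD3965 it was -0.29, -0.11 and -1, against -0.083, -0.10 and -0.31. HERPUD1 shows the spread: with DMSO its feeder difference was -0.093 in H1, 0.68 in H9 and -1.35 in HSF1. XBP1 (-0.042, 0.28 and -1.16) and SEL1L (-0.27, 0.35 and -1.75) had the same signs line by line. Over the 3 lines the differences were -0.25 (SE 0.38) for HERPUD1, -0.31 (SE 0.30) for XBP1 and -0.56 (SE 0.38) for SEL1L, none of which passed. The HERPUD1 difference changed sign with array weights, where it passed at 0.47 (adjusted p = 0.0402). Without the feeder-supported HSF1 arrays the members' median with DMSO was -0.0097, with 5 of 10 below 0, against -0.11 for all genes.

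The feeder differences also depend on how the arrays are scaled. After quantile normalization of the deposited values, the median of all genes moved from -0.19 to 0.038 with DMSO and from -0.20 to 0.035 with AZD3965, the share of passing genes that were higher moved from 38.7% to 50.6% and from 41% to 49.9%, and the members' median was 0.11 and -0.040, with 0 of 10 members passing in either. With arrays set to a common median the members' median was -0.39 and -0.56 beside -0.31 and -0.32 for all genes. DNAJB9 after quantile normalization was at -0.48 (adjusted p = 0.189) with DMSO and -0.51 (adjusted p = 0.153) with AZD3965. With the ACTB difference as a covariate it was at -0.48 (adjusted p = 0.537) and -0.52 (adjusted p = 0.361). Markers moved too: with DMSO 8 of 21 fibroblast markers and 6 of 6 endoderm markers were higher and 5 of 10 stem cell markers lower on feeders, and with AZD3965 6 fibroblast and 5 endoderm markers were higher and 4 fibroblast and 7 stem cell markers lower. Of mesoderm, neuroectoderm, and trophoblast and amnion markers, 2 of 6, 3 of 6 and 3 of 5 were higher with DMSO. With AZD3965 4 of 6, 2 of 6 and 2 of 5 of them were higher, and none was lower under either treatment. Of all 17218 genes, 2620 were higher and 4152 lower with DMSO, and 3325 and 4778 with AZD3965. Over both treatments the mean fibroblast level was 7.64 to 8.54 on feeders and 6.79 to 7.72 without. The part of these changes in the members' differences was not tested.

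The probe sets of 1 member did not always move together. Of the 22 probe sets, 5 were lower on feeders with DMSO and 5 with AZD3965, where 39.5% and 47.2% of all probe sets passed. They were the 3 of DNAJB9, the single one of SDF2L1 or EDEM1, and CALR 200935_at, whose difference was -1.08 (SE 0.20, adjusted p = 0.00475) with DMSO and -0.74 (SE 0.20, adjusted p = 0.0142) with AZD3965. The values of that CALR probe set with DMSO were 7.37, 7.67 and 6.99 without and 6.82, 6.39 and 5.6 on feeders in H1, H9 and HSF1. The representative CALR probe set, 212953_x_at, read 11.46, 11.54 and 11.14 against 11.39, 11.41 and 11.12, a difference of -0.076 (SE 0.14). With the 3 CALR probe sets averaged it was -0.59 and passed (adjusted p = 0.0244). The second HSP90B1 probe set, 216450_x_at, gave 6.12, 6.51 and 8.24 without and 5.97, 8.37 and 8.82 on feeders, and over all 4 conditions it lay at 5.97 to 6.34 in H1 and at 8.24 to 8.82 in HSF1. In H9 it was 6.51 and 6.37 without and 8.37 and 8.46 on feeders, yet 8.60 to 9.25 in the feeder-free H9 cultures of the medium part.

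In the medium part 21 of the 22 probe sets were tested. Conditioned medium called 1 higher and 1 lower in H9, where 10.1% of all probe sets passed, and 1 higher and 5 lower in HSF1, where 11.4% passed. The single SEL1L call of H9 did not pass when all probe sets were tested. The minor HERPUD1 probe set, 1569380_a_at, lay at 5.76 to 6.25 and read 0.21 (SE 0.11) in H9 and 0.20 (SE 0.11) in HSF1, neither past the threshold. With each gene's probe sets averaged, HERPUD1 was -0.28 in HSF1, which passed, and -0.12 in H9, which did not (adjusted p = 0.343).

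**Figure D4:**
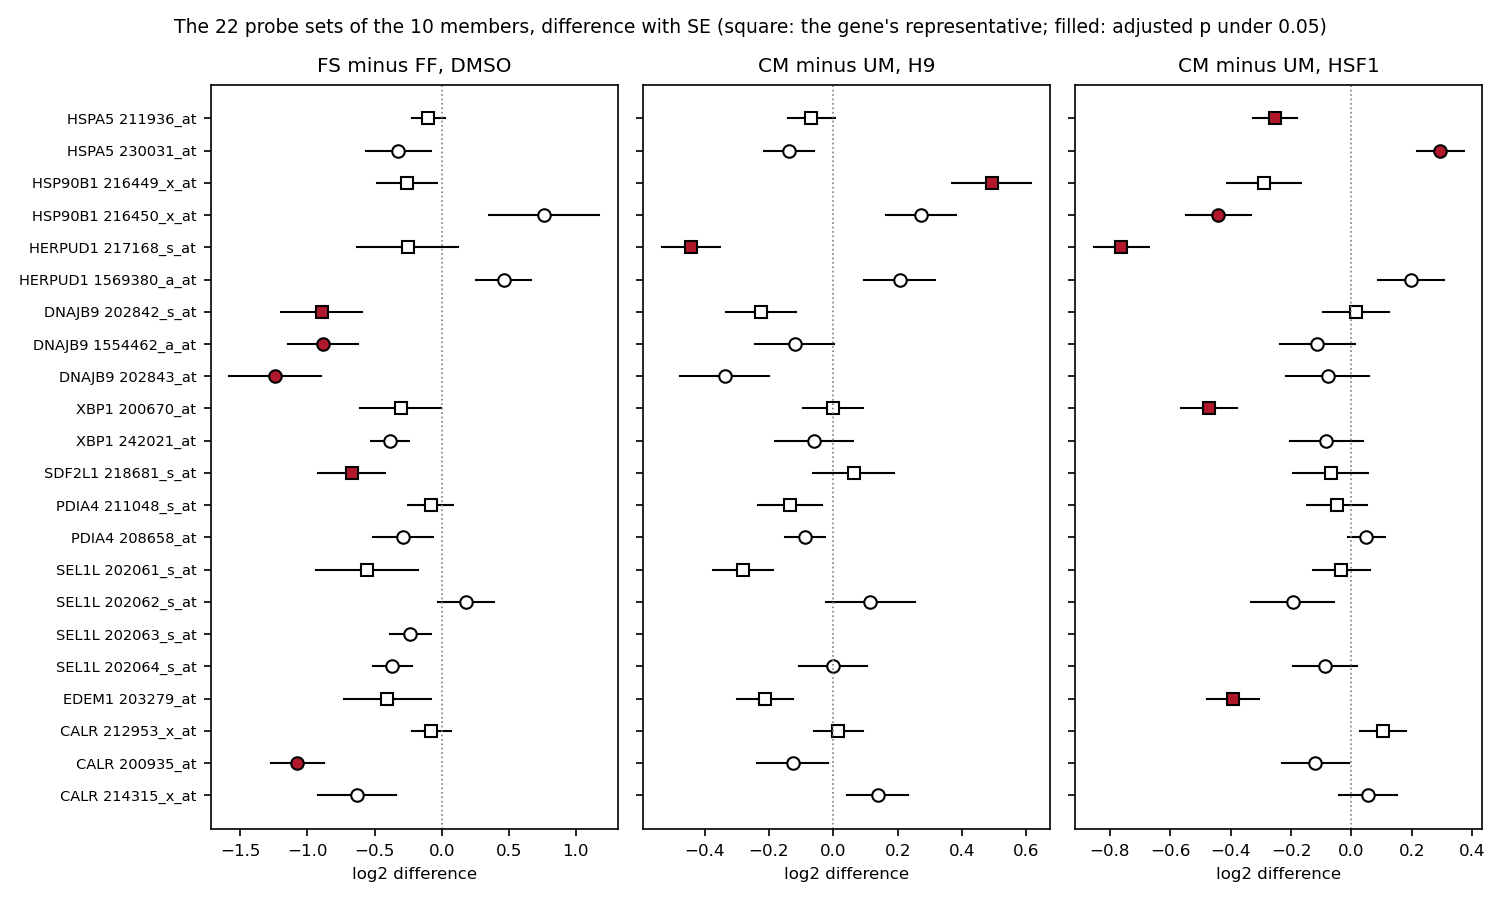
Log2 difference with SE for the 22 probe sets of the 10 members, for feeder-supported minus feeder-free with DMSO and for conditioned minus unconditioned medium in H9 and HSF1 (squares, the representative of a gene; filled, adjusted p over all probe sets under 0.05). The 3 DNAJB9 probe sets lie together on feeders at -0.88 to -1.24, while the HSPA5 pair lies on opposite sides of 0 in HSF1. The panels have different axes, and 1 SEL1L probe set below the filter is missing from the medium panels.

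Of the other genes of the pathway, with DMSO 6 were higher and 23 lower of 103 tested (median -0.41), and with AZD3965 7 were higher and 28 lower (median -0.37). These are 28.2% and 34% of them, below the 39.3% and 47.1% of all genes, whose medians were -0.19 and -0.20. Those leading with DMSO were, among genes that rose, the membrane-bound transcription factor CREB3L1 (0.96, SE 0.21), the stress regulator NUPR1 (0.77, SE 0.18) and the retrieval receptor KDELR3 (0.71, SE 0.20), with adjusted p of 0.0102, 0.0133 and 0.0227. Those leading the fall were CREB3L4 (-0.95, SE 0.20), the coat subunit SEC24D (-1.48, SE 0.33) and the oxidase ERO1B (-0.84, SE 0.20), with adjusted p of 0.00881, 0.0106 and 0.0126. With AZD3965 the testis-type chaperone CLGN (-2.46, SE 0.40, adjusted p = 0.00243), CREB3L4 (-1.09, SE 0.20, adjusted p = 0.00455) and ERO1B (-0.96, SE 0.20, adjusted p = 0.00717) led the fall. DERL1, a component of the ERAD channel (0.86, SE 0.21, adjusted p = 0.0124), the pancreatic isomerase PDIA2 (0.73, SE 0.17, adjusted p = 0.0113) and SIL1, an exchange factor of BiP (0.73, SE 0.23, adjusted p = 0.0262), led the rise. Among these, the CLGN call was kept in 14 of 14 settings and each of the others was lost in 2 to 6. Without H1 the adjusted p lay between 0.0652 and 0.103 for the calls with DMSO, SEC24D apart, and between 0.0654 and 0.13 for those with AZD3965, CLGN apart. Without H9 it lay between 0.0529 and 0.149 for all 6 with DMSO, and DERL1 (0.066) and SIL1 (0.076) were lost with AZD3965. With probe sets averaged, KDELR3 was 0.057 (adjusted p = 0.763) and DERL1 -0.070 (adjusted p = 0.7).

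DDIT3 rose on feeders with DMSO by 0.77 (SE 0.23, adjusted p = 0.0259) and was at 0.53 (SE 0.23, adjusted p = 0.0728) with AZD3965. Without H1 the DMSO difference was 0.89 (adjusted p = 0.0936) and without H9 0.50 (adjusted p = 0.214). ATF4 was lower with DMSO at -0.45 (SE 0.17, adjusted p = 0.0496), a call lost in 9 of 14 settings, among them without H1 (-0.59, adjusted p = 0.103) and without H9 (-0.49, adjusted p = 0.155). Among the sensors, ATF6 was lower with AZD3965 at -1.14 (SE 0.31, adjusted p = 0.0161) and at -0.43 (SE 0.31) with DMSO. The call was lost without H1 (-1.32, adjusted p = 0.0783). EIF2AK3 was at -0.71 (SE 0.39) and -0.52 (SE 0.39), and ERN1 at 0.026 (SE 0.15) and -0.11 (SE 0.15), none past the threshold.

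AZD3965 called no member. By limma, 0 of 10 members passed without feeders, where 0.842% of all genes passed, 0 of 10 on feeders (0.00581%), 0 of 10 over both systems (0.639%), and 0 of 10 differed in their response between the systems (0.0174%). At an unadjusted p under 0.05 the count was also 0 of 10 in each of these 4 comparisons, against 7.74%, 1.66%, 8.1% and 2.07% of all genes. In other fits more genes passed without feeders, 14% of all genes with each pair of arrays of 1 culture as a block, and then 1 member, EDEM1, was among them. The members' differences ran from -0.092 to 0.60 without feeders and from -0.25 to 0.25 on feeders, with SE of 0.12 to 0.38. The smallest interval without feeders was that of HSPA5, -0.31 to 0.23, and that of SEL1L reached from -0.79 to 0.88. In feeder-free cells a 1-unit rise, a doubling, lay outside the interval for 9 of 10 members, EDEM1 being the other, whose interval was -0.10 to 1.3.

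EDEM1 had the largest difference of the 10 members under the inhibitor. Its feeder-free values were 7.93, 8.13 and 8.04 with DMSO and 8.32, 8.68 and 8.90 with AZD3965 in H1, H9 and HSF1. All 3 AZD3965 arrays lie above all 3 DMSO arrays, with differences of 0.39, 0.55 and 0.87, yet the fitted difference of 0.60 (SE 0.32, adjusted p = 0.792) did not pass. This SE comes from all 12 arrays, the feeder-supported ones included. With only the 6 feeder-free arrays the difference had an SE of 0.11 and adjusted p = 0.0119. With each pair of DMSO and AZD3965 arrays as a block the SE was 0.12 and adjusted p = 0.00571. On feeders EDEM1 was 8.12, 7.74 and 7.03 with DMSO and 8.31, 7.95 and 6.94 with AZD3965, a difference of 0.10 (SE 0.32), and the difference between the systems was -0.50 (SE 0.46, adjusted p = 1). EDEM1 has 1 probe set, so no second reading was available. HERPUD1 on feeders read -0.25 (SE 0.38), and it passed only with array weights, at -0.77 (adjusted p = 0.0234).

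By the same fit 0 of the 103 pathway genes outside the members passed under AZD3965 in either system, with 7 without feeders and 2 on feeders at an unadjusted p under 0.05. Without feeders this count depends on the fit. With each pair of DMSO and AZD3965 arrays as a block, 11 pathway genes were higher and 8 lower, 18.4% against 14% of all genes. With only the feeder-free arrays 15 were higher and 13 lower, 27.2% against 19% of all genes. Without the feeder-supported HSF1 arrays 9 were higher and 5 lower, 13.6% against 9.67%. With array weights 8 were higher and 4 lower, 11.7% against 13.9%, a share below that of all genes. On feeders the pair as a block gave 1 pathway gene, 0.971% against 0.499% of all genes. Only the arrays compared gave 2, 1.94% against 1.97%. Without the feeder-supported HSF1 arrays it was 0, against 0.00581%. Array weights on feeders gave 7 higher and 1 lower, 7.77% against 11.3%.

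ATF6 read 8.25, 7.81 and 7.97 with DMSO and 8.97, 8.91 and 9.15 with AZD3965 in feeder-free H1, H9 and HSF1. The groups do not overlap, and the difference of 1.00 (SE 0.31, adjusted p = 0.254) did not pass, but it passed with the pair as a block (SE 0.14, adjusted p = 0.000371), with only the feeder-free arrays (adjusted p = 0.00259) and without the feeder-supported HSF1 arrays (adjusted p = 0.00344). ATF4, at -0.22 (SE 0.17, adjusted p = 0.989), likewise passed in these 3 settings, with adjusted p of 0.0487, 0.0256 and 0.045. EIF2AK3, at -0.32 (SE 0.39), passed with only the feeder-free arrays (adjusted p = 0.0241). DDIT3 (0.17, SE 0.23) and ERN1 (0.22, SE 0.15) passed in none of them. With the pair as a block, CLGN had the smallest adjusted p of the 11 higher pathway genes (1.14, adjusted p = 4.45e-05). ERO1A came next (0.834, adjusted p = 0.000296). Of the 8 lower it was CREBZF (-0.607, adjusted p = 0.00411). CLGN read 7.222, 7.78 and 8.149 with DMSO and 8.475, 8.909 and 9.185 with AZD3965 in feeder-free H1, H9 and HSF1. Its difference between the systems passed in that fit, at -0.885 (adjusted p = 0.0217). Over both systems SEC11C passed with the pair as a block, at -0.23 (adjusted p = 0.0395), and without feeders with only those arrays, at -0.29 (adjusted p = 0.0488).

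Across all 24 arrays most members varied together within a line. After each line's mean in each part of the study was taken away, the correlation of a member with the mean of the other 9 was 0.921 for SEL1L, 0.898 for XBP1, 0.876 for DNAJB9, 0.781 for EDEM1, 0.77 for HSPA5, 0.761 for HERPUD1, 0.743 for SDF2L1, 0.553 for HSP90B1 and 0.543 for PDIA4. CALR was the exception, at -0.357. Without the feeder-supported HSF1 arrays SEL1L was at 0.851, XBP1 at 0.835, DNAJB9 at 0.778 and HSPA5 at 0.691. EDEM1 was then at 0.647, HERPUD1 at 0.641, SDF2L1 at 0.599, PDIA4 at 0.499, HSP90B1 at 0.388 and CALR at -0.354. These values describe arrays that share lines, culture and RNA quality, and carry no test. Among 16508 other genes the closest to the members' mean were WSB2 (0.977), SH3D19, ANAPC13 and SMCHD1 (0.976 each), MFSD1 and BAZ1A (0.975 each) and FAM107B and TEFM (0.973 each), all at 0.95 to 0.967 without those 2 arrays. Each of these genes lay closer to that mean than any member to the mean of the other 9. The share of all genes with such correlations is not given, so varying together is not shown to be particular to the members.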

How the data were processed

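The authors deposited log2 values from the RMA method, per the submitters' processing notes; its version is not given in the sources used here. Of 54675 probe sets, 41097 name 1 gene, 1801 several and 11777 none. Members and gene lists were chosen with earlier results of these data known.

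From these values each part of the study (12 arrays) was fitted with limma 3.58.1 (lmFit, eBayes with trend) in R 4.3.3, with line as a block in the feeder and inhibitor part. A gene was represented by its probe set with the highest mean and was tested where log2 exceeded 5 on at least 3 arrays. P-values were Benjamini-Hochberg adjusted over all genes tested, with a threshold of 0.05. The script was tested on simulated data. The number of arrays limits the precision.

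In the feeder and inhibitor part the replicate numbers stand for the lines, so the block pairs arrays of 1 line; over 18 pairs of such arrays the correlation of deviations from group means was -0.00674 to 0.919. Medium arrays were not paired by number.

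All members were described. Among other pathway genes, those named were up to 3 per direction with the smallest p among those that passed in each of the 6 comparisons between 2 groups, plus ATF4, DDIT3 and the 3 sensors; the 8 genes closest to the members' mean by Pearson correlation were named too. ERO1A and CREBZF were named for their small p under AZD3965 with the pair as a block. Alternatives were quantile or common-median scaling, other filters, averaged probe sets, the ACTB covariate, array weights, other blocks, no trend, only the arrays compared and arrays left out.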

Additional observations from a re-analysis of the deposited data

Results flagged for a closer look

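In the medium part the response to conditioned medium differed between HSF1 and H9 by an interaction term of the limma fit for 6 of the genes described. This term passed for 7.73% of all genes and for 9.8% of the 102 other pathway genes tested. ATF3, SEC11C and SRP19 were named for small p-values in 1 line on these same arrays. That choice favours a difference between the lines, so their count is no separate evidence. Each value is the change in HSF1 minus the change in H9, on the log2 scale. For HSP90B1 it was -0.782 (SE 0.167, adjusted p = 0.0112). For XBP1 it was -0.471 (SE 0.128, adjusted p = 0.0356). Among the other pathway genes it was 0.447 for ATF3 (SE 0.125, adjusted p = 0.0396), -0.304 for ATF4 (SE 0.0833, adjusted p = 0.0363), -0.42 for SEC11C (SE 0.106, adjusted p = 0.0251) and -0.39 for SRP19 (SE 0.0931, adjusted p = 0.0197). Of 22 alternative settings, 0 ended the call of HSP90B1, 11 that of XBP1, 15 each those of ATF3 and ATF4, 7 that of SEC11C and 4 that of SRP19. With averaged probe sets the values were 0.131 for ATF3 (adjusted p = 0.51), -0.0678 for SEC11C (0.751) and -0.247 for XBP1 (0.125). Without replicates 2 and 3 of unconditioned H9 the values were 0.333 for ATF3 (adjusted p = 0.207), -0.181 for ATF4 (0.237), -0.3 for SEC11C (0.138) and -0.252 for SRP19 (0.13).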

How the results depend on the processing

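Counts are of the 10 members that passed. With DMSO the feeder count (2) was 0 with quantile normalization, 0 with the ACTB covariate, 1 with no filter, 1 with only the arrays compared, 1 without the feeder-supported HSF1 arrays, and 0 to 1 with a line left out. With AZD3965 (2) it was 0 with quantile normalization, the ACTB covariate or only the arrays compared, 5 with array weights, 1 without the feeder-supported HSF1 arrays, and 0 with any line left out. With no replicate block both feeder counts were 0. The inhibitor counts (0) were 1 without feeders with array weights, only the arrays compared or the pair as a block, 1 on feeders with array weights, and over both systems 2 with array weights and 1 with the pair as a block. Conditioned medium in H9 (3) gave 1 with averaged probe sets, 1 with only the arrays compared, 5 with array weights, 0 without replicates 2 and 3 of unconditioned H9, and 1 to 5 with 1 array left out. The difference between lines (2) gave 1 with a common median, averaged probe sets or no trend, and 1 to 4 with 1 array left out. The counts in HSF1 stayed within 1.5 times the reported 4.

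Same-numbered medium arrays correlated at -0.266 to 0.132, and differently numbered ones of a line at -0.397 to 0.411. With 3 arrays per group these values show no pairing by number, but they cannot decide whether a number stands for a shared batch. With a replicate block the counts were 2 in H9, 4 in HSF1 and 2 for the difference between lines.

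The sign turned for HERPUD1 on feeders with DMSO: 0.202 with quantile normalization, 0.104 with averaged probe sets, 0.291 with the ACTB covariate, 0.47 with array weights, 0.31 with both feeder-supported HSF1 arrays left out, and -0.723 to 0.295 with a line left out. In that comparison the sign also turned for HSPA5 and XBP1 in 5 of 14 settings each and for SEL1L in 4. For HSP90B1 and PDIA4 it turned in 3 each, and for EDEM1 and CALR in 1 each. In conditioned HSF1 the sign turned for HSPA5 with averaged probe sets (0.0205). The cause was not tested. For feeders with DMSO 6772 genes passed, and 11360 with array weights, the most of any setting. These were 39.3% and 66% of all genes. The share was lowest with the ACTB covariate, at 2.04%, and was 2.14% without H9 and 5.49% without H1. Elsewhere the number of genes passing ranged from 749 to 12282 with AZD3965 (8103), from 6 to 3277 for the inhibitor without feeders (145), from 0 to 1938 on feeders (1), from 2 to 5888 over both (110), from 0 to 144 for the difference between systems (3), from 656 to 5295 for conditioned medium in H9 (2720), from 1853 to 4790 in HSF1 (3040) and from 513 to 3282 for the difference between lines (1281).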
